A study of Mus musculus with 15 samples.

Results

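The tissue described here is the substantia nigra of the uninjected side of the brain, taken from 8 C57Bl/6J mice that had received a virus on the opposite side. These 8 RNA libraries, chosen by their labels, are 8 of the 15 in the series. In 3 mice the opposite side had received 1.65e10 vector genomes of an adeno-associated virus that carries miR-181, a microRNA, behind the human synapsin promoter (hSYN1), which acts mainly in neurons. In the other 5 mice it had received 1e10 vector genomes of the same kind of virus with green fluorescent protein (GFP). Tissue was collected 3 weeks later in both sets. The uninjected side is thus the contralateral nigra of an operated animal and not tissue from an untreated mouse, and each library is 1 animal. The labels give neither the sex nor the age of the mice. Libraries of the miR-181 set were made together and read as 75-base pairs on a HiSeq sequencer, and those of the GFP set were made together and read as 50-base pairs on a NovaSeq. No library was made in both ways. Vector, dose, dissection, library preparation, sequencer and read length therefore change together between the sets and cannot be told apart, and each difference below is one between 2 sets of libraries.

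The substantia nigra lies in the ventral midbrain, and its compact part holds dopamine neurons that project to the striatum, while its reticular part is built mostly of GABA neurons that fire steadily. Several small nuclei lie within reach of the same piece of tissue. The ventral tegmental area holds further dopamine neurons, the raphe nuclei on the midline hold serotonin neurons, the Edinger-Westphal nucleus holds cells that make the peptides urocortin and CART, and the oculomotor nucleus holds cholinergic motor neurons. The thalamus and the subthalamic nucleus lie above and in front, the pons lies behind, and the pituitary gland and the meninges lie below. Marker genes of these neighbours were listed, with earlier results of these data known, and their levels were compared library by library. In bulk tissue, fewer cells of a type and less RNA per cell cannot be told apart.

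Values are transcript abundances corrected for transcript length, with each library rescaled to a sum of 1e+06 because the authors normalized the 2 tables separately. They are called TPM here, and levels set across the sets rest on that rescaling. The depth of a library cannot be read from such values. Each library listed between 15019 and 15303 genes at 1 or more, mitochondrially encoded transcripts took between 12.4% and 15.5%, and no 2 libraries were identical. Across genes, libraries correlated at 0.982 to 0.987 within the miR-181 set, at 0.964 to 0.978 within the GFP set and at 0.946 to 0.959 between the sets (Pearson's r, a description over genes that share libraries). Of 15264 genes with a mean of at least 1, limma called 2336 (15.3%) higher and 795 (5.21%) lower in the miR-181 set at an adjusted p of 0.05, and the 3 and the 5 libraries did not overlap for 21.9% of genes that were higher and 7.08% that were lower. Most called differences were small. Only 149 genes were called higher and 175 lower by more than 2-fold. The median log2 difference (miR-181 set minus GFP set) over all genes was 0.08, with quartiles at -0.07 and 0.23. The balance of directions depended on the scaling: 74.6% of calls were higher as reported, against 40.2% with each library centred on its median, which moved the median over all genes to -0.02, and 58.8% after quantile normalization. For that reason list medians are given against 0.08. A gene with a mean under 1 in one set passed the filter only through the set where it was higher and so had to differ: 249 tested genes had such a mean in the GFP set and 322 in the miR-181 set. Counts and medians over tested members of a list that hold such genes are descriptions.

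The dissections were first checked against their label. Markers of dopamine neurons were present in all 8 libraries. Th, tyrosine hydroxylase, which makes the dopamine precursor, stood at 353, 332 and 238 TPM in mice 1, 2 and 3 of the miR-181 set and at 513, 614, 353, 427 and 436 in GFP mice 1 to 5. Slc6a3, the dopamine transporter, stood at 441, 436 and 277 and at 549, 666, 409, 467 and 523. Aldh1a1, which marks ventral nigral dopamine neurons, stood between 509 and 716 in every library, and Pvalb, found in neurons of the reticular part, between 205 and 294. Every library thus held the defining markers of the nigra. Markers of some neighbouring structures differed far more between libraries, in patterns that followed the set for some of them and single libraries for others. Not all did: the summed level of red nucleus and tectum genes ran from 30.8 to 44.1 TPM, and that of dopamine neuron genes from 960 to 2112.

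**Figure D1:**
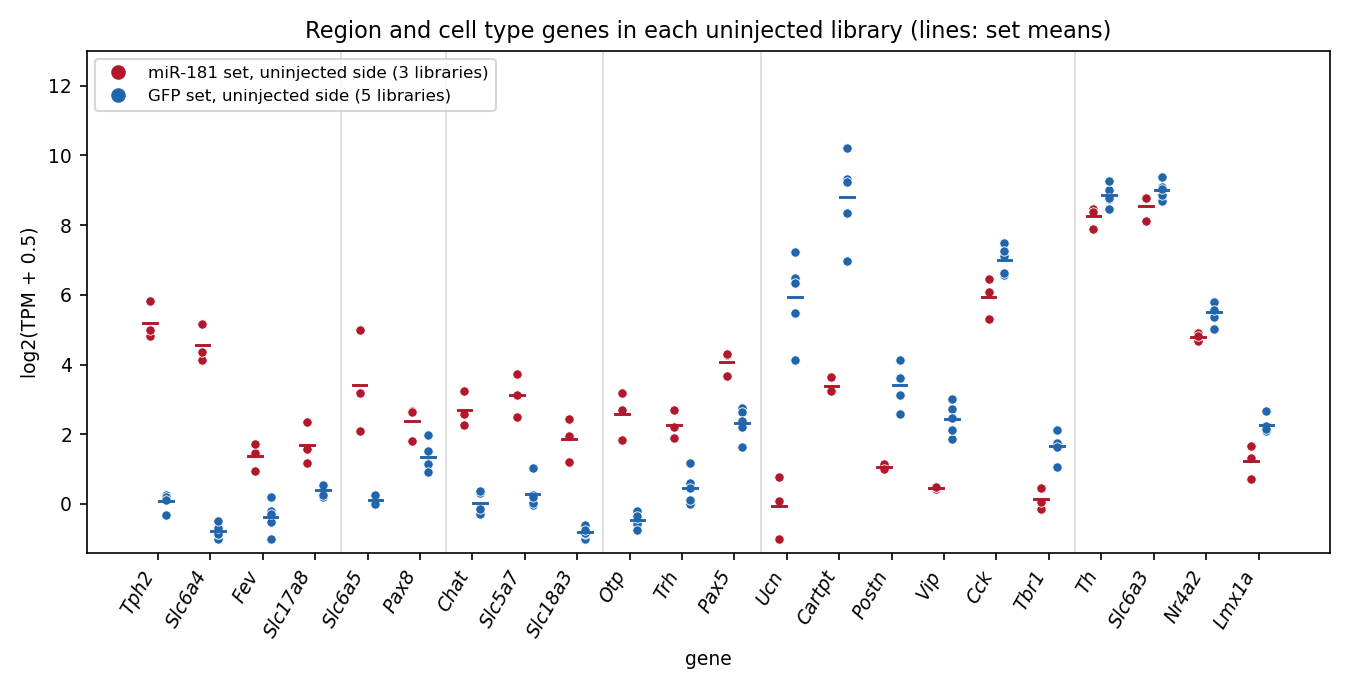
Values of the genes of nigral neurons and neighbouring structures as log2(TPM + 0.5), 1 point for each of the 8 uninjected libraries (3 of the miR-181 set, 5 of the GFP set), with short lines at the set means. Tph2 and Slc6a4 separate the sets in one direction and Ucn and Cartpt in the other, while the sets lie much closer for Th and Slc6a3.

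Serotonin neuron genes gave the largest differences towards the miR-181 set among the listed genes. Tph2 (ENSMUSG00000006764), the enzyme that starts serotonin synthesis in neurons, stood at 27.6, 31.3 and 55.7 TPM in mice 1, 2 and 3 of the miR-181 set and at 0.625, 0.30, 0.698, 0.647 and 0.587 in GFP mice 1 to 5. The GFP libraries were all below 1 and near each other, and the lowest miR-181 library lay far above them. The means were 38.2 ± 15.3 (SD, n = 3) and 0.571 ± 0.157 (SD, n = 5), a log2 difference of 5.12 ± 0.24 (SE; limma adjusted p = 1.82e-06). Slc6a4 (ENSMUSG00000020838), the serotonin transporter, stood at 17.0, 19.9 and 35.5 against 0, 0.0481, 0.0479, 0.119 and 0.215, so that it was at or near 0 in the GFP set; the difference was 5.33 ± 0.25 log2 units (limma adjusted p = 2.18e-06). Fev, a transcription factor of serotonin neurons, stood at 1.42, 2.23 and 2.81 against 0.656, 0, 0.370, 0.200 and 0.311 (log2 1.73 ± 0.33; limma adjusted p = 0.00689). The GFP means of all 3 genes were under 1. Among the 8 libraries miR-181 mouse 3 was the highest for all 3 genes.

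Of 12 listed serotonin neuron genes, 11 were tested, and 5 were called higher and none lower, against the 15.3% and 5.21% of all genes. The other members called were Slc17a8, a vesicular glutamate transporter carried by some raphe neurons (log2 1.28 ± 0.27), and Gchfr, which regulates the enzyme that makes the cofactor of Tph2 and Th (log2 0.92 ± 0.23; limma adjusted p = 0.0106 and 0.0203). The list's median was 0.69 against 0.08. Of the 11, 5 had a mean under 1 in the GFP set, among them Tph2, Slc6a4, Fev and Slc17a8. Of the 6 with a mean of at least 1 in both sets, 1 was called higher (Gchfr) and 0 lower. Its members that dopamine neurons also use went the other way without passing: Ddc, the decarboxylase shared by both transmitters, stood at 248 ± 42.5 against 335 ± 63.2 (log2 -0.43 ± 0.16; limma adjusted p = 0.0847), and Lmx1b, a transcription factor of both lineages, at 5.47 ± 1.54 against 7.80 ± 1.59 (log2 -0.48 ± 0.20; limma adjusted p = 0.114). The number called higher fell from 5 to 3 without miR-181 mouse 1 or mouse 3, with Gchfr losing its call and Fev falling below the filter each time, and Tph2 and Slc6a4 stayed called in every setting that tested them. The summed level of the list, which Ddc and Sncg dominate, was 491 to 535 TPM in the miR-181 set and 453 to 710 in the GFP set.

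Genes of the hindbrain and of cholinergic neurons were also higher in the miR-181 set. Slc6a5, the transporter of glycine neurons, stood at 8.51, 3.79 and 31.2 in mice 1, 2 and 3 of the miR-181 set and between 0.507 and 0.691 in the GFP set, so the sets did not overlap but miR-181 mouse 3 was several-fold above the other 2 (log2 3.31 ± 0.51; limma adjusted p = 0.00284). Glra1, a glycine receptor subunit, stood at 33.5, 33.1 and 55.0 against 19.2 to 23.9 (log2 0.91 ± 0.16; limma adjusted p = 0.00477). Of 10 listed hindbrain genes 5 were tested and 4 were called higher, against 15.3% of all genes. The others called were Pax8, a patterning factor (log2 1.03 ± 0.28), and Nkx6-2, which oligodendrocytes also express (log2 0.49 ± 0.09). Pax2, which was too low to be tested, stood at 1.53, 0.905 and 2.10 in the miR-181 libraries and at no more than 0.350 in the GFP libraries. The median of the tested members was 0.91 against 0.08, and Slc6a5 was tested only through the miR-181 set. Of the 4 members with a mean of at least 1 in both sets, 3 were called higher and 0 lower. Pax8, whose sets overlapped, was no longer called without miR-181 mouse 1 or 3 or GFP mouse 3, 4 or 5 (limma adjusted p up to 0.129).

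Hox genes, which are expressed from the hindbrain backwards, were low throughout: all 17 listed genes were under 1 in every library, and none was tested. Their summed level was 2.92, 3.06 and 4.62 in mice 1, 2 and 3 of the miR-181 set and 0.919, 0.863, 0.973, 1.26 and 1.01 in GFP mice 1 to 5, without overlap. Hoxb2 stood at 0.0387, 0.157 and 0.934 in the miR-181 libraries and was listed at 0 in each GFP library. The 5 noradrenaline neuron genes, which mark the locus coeruleus of the pons, were all under 1 in every library, with summed levels of 0.0746, 0.251 and 1.20 against 0.0250 to 0.209. At these levels only miR-181 mouse 3 stood apart.

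The 3 defining genes of cholinergic neurons were all higher in the miR-181 set. Chat, the enzyme that makes acetylcholine, stood at 4.28, 5.48 and 8.86 in mice 1, 2 and 3 of the miR-181 set and at 0.320 to 0.806 in the GFP set. The difference was 2.66 ± 0.27 log2 units (limma adjusted p = 0.000387). Slc5a7, the choline transporter, stood at 5.18, 8.15 and 12.9 against 0.471 to 1.53, and Slc18a3, the vesicular acetylcholine transporter, whose gene lies within that of Chat, at 1.81, 3.34 and 4.88 against 0 to 0.164 (log2 2.83 ± 0.32 and 2.67 ± 0.31; limma adjusted p = 0.000659 and 0.000787). The order of the miR-181 libraries was the same for all 3 genes, with mouse 3 highest, and no miR-181 library overlapped the GFP set. Prph, an intermediate filament of motor and other peripheral neurons, differed by 0.93 ± 0.25 (limma adjusted p = 0.0300). Of the 9 listed cholinergic and motor neuron genes 7 were tested, and 4 were called higher and 3 lower, against 15.3% and 5.21% of all genes. The lower members are the peptide genes Ucn and Cartpt and the motor neuron gene Chodl. Chat, Slc5a7 and Slc18a3 had GFP means under 1 and Ucn a miR-181 mean under 1, so that 3 of the 7 had a mean of at least 1 in both sets. Of these, 1 was called higher and 2 lower. Without miR-181 mouse 3 the number called higher was 2.

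The peptide genes Ucn and Cartpt ran opposite to the serotonin genes: they were abundant in the GFP set and far lower, though for Cartpt still present, in the miR-181 set. Ucn (ENSMUSG00000038676) encodes urocortin, a relative of corticotropin-releasing hormone, and Cartpt (ENSMUSG00000021647) the precursor of CART, and both are made by the peptide neurons of the Edinger-Westphal nucleus. The stretches upstream of the annotated starts of Ucn, Cartpt, Tph2 and Slc6a4 are shown because these genes carry the 2 opposite patterns. That of Th, a dopamine neuron gene that differed far less between the sets, is shown beside them. Each is the 120 bases before the RefSeq start on GRCm38.p6, read 5′ to 3′ on the gene's own strand. Capitals mark TGACGTCA, the cAMP response element, or TATAAA, a core promoter element.
Ucn: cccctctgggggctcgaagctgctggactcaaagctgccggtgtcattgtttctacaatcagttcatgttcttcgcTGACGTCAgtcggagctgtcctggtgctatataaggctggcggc
Cartpt: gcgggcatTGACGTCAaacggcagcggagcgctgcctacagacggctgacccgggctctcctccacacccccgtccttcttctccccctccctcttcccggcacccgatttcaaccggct
Th: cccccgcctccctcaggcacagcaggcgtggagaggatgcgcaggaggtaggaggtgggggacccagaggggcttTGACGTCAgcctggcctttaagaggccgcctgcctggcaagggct
Tph2: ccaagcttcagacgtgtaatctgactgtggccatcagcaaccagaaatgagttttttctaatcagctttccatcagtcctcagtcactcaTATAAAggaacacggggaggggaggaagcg
Slc6a4: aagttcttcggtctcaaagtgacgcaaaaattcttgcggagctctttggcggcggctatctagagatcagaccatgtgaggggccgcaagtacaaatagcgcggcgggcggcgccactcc
They lie at chr5:31138896-31139015 (minus strand), chr13:99900684-99900803 (minus), chr7:142899996-142900115 (minus), chr10:115185023-115185142 (minus) and chr11:76998477-76998596 (plus). TGACGTCA, which reads the same on both strands, begins 44 bases before the start in Ucn, 112 in Cartpt and 45 in Th, and it occurs within 250 bases upstream of 508 of 32851 RefSeq promoters (1.55%). TATAAA begins 30 bases before the start in Tph2 and occurs, on either strand, within the same distance in 12.4% of promoters. Neither was found in the stretch shown for Slc6a4. A match describes the letters only, and the part of these elements in the differences was not tested.

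Ucn stood at 1.20, 0.558 and 0 TPM in mice 1, 2 and 3 of the miR-181 set and at 44.2, 149, 88.4, 16.9 and 81.2 in GFP mice 1 to 5. The lowest GFP library was well above the highest miR-181 library (log2 -5.98 ± 0.64; limma adjusted p = 0.000503). Cartpt stood at 9.08, 12 and 8.95 against 323, 1179, 644, 126 and 599, a difference of -5.44 ± 0.59 log2 units (limma adjusted p = 0.000517). Within the GFP set both genes had GFP mouse 2 highest and GFP mouse 4 lowest, and the level of each spanned several-fold among these 5 mice. Postn, an extracellular matrix protein, ordered the GFP libraries in the same way, at 8.18, 17.0, 11.7, 5.51 and 11.6, against 1.53, 1.73 and 1.5 in the miR-181 set (log2 -2.35 ± 0.29; limma adjusted p = 0.00103). Chodl, a marker of a class of motor neurons, stood at 0.925, 1.07 and 1.06 against 2.14 to 3.56 (log2 -1.15 ± 0.18; limma adjusted p = 0.00278). Ucn, Cartpt and Postn kept their direction and call in all 21 other settings, and the cholinergic genes Chat and Slc5a7 in the 20, and Slc18a3 in the 19, that tested them. Ucn, Chat, Slc5a7 and Slc18a3 passed the main filter only through the set where they were higher. For these genes the record is a description.

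Some transcription factors were called higher in the miR-181 set, Otp and Pax5 with the largest differences among those described, while others, Lmx1a, Foxa2, Nr4a2 and Nkx6-1, were called lower. Otp, a factor of hypothalamic and rostral hindbrain neurons, stood at 5.92, 3.09 and 8.57 in mice 1, 2 and 3 of the miR-181 set and at 0.0987 to 0.373 in the GFP set (log2 3.02 ± 0.31; limma adjusted p = 0.000410). Pax5, a factor of the midbrain-hindbrain boundary, stood at 18.7, 12.2 and 19.3 against 2.60 to 6.25 (log2 1.75 ± 0.25; limma adjusted p = 0.00209). The sets did not overlap for either gene. Of 10 factors listed for midbrain GABA neurons 4 were called higher, none lower and 6 did not pass (median 0.34 against 0.08): Pax5, Zfpm2 (log2 0.61 ± 0.10), Pax7, whose sets overlapped (log2 1.46 ± 0.43; limma adjusted p = 0.0389), and Tal1, whose sets overlapped too (log2 0.33 ± 0.10; limma adjusted p = 0.0427). Pax7 had a GFP mean under 1 and was tested only through the miR-181 set. Of the 9 factors with a mean of at least 1 in both sets, 3 were called higher and 0 lower, against 15.3% and 5.21% of all genes. Pax7 and Tal1 lost their calls in most settings, 11 of 18 and 16 of 21. The count of 4 fell to 2 when miR-181 mouse 1 or 3, or GFP mouse 2, 3 or 5, was left out. En2, an engrailed factor that dopamine neurons and the isthmus both use, was higher by 0.84 ± 0.16, at 7.88, 6.71 and 7.62 against 2.87 to 5.04 (limma adjusted p = 0.00723).

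Among hypothalamic genes 9 of 20 were tested and 3 were called higher, none lower, with a median of 0.27 against 0.08, or 0.00 without miR-181 mouse 2. Otp and Trh were tested only through the miR-181 set. Of the 7 with a mean of at least 1 in both sets, 1 was called higher, against 15.3% of all genes. Besides Otp, those called higher were Trh, the precursor of thyrotropin-releasing hormone, at 4.14, 3.24 and 5.93 against 0.503 to 1.76 (log2 1.79 ± 0.30; limma adjusted p = 0.00388), and the orphan receptor Gpr101 (log2 0.69 ± 0.16; limma adjusted p = 0.0142, or 0.0716 without miR-181 mouse 3). Of the interpeduncular and habenular genes 7 were tested, Otp and Irx1 were called higher and Nkx6-1, a factor of ventral progenitors and motor neurons, was called lower (log2 -0.92 ± 0.23; limma adjusted p = 0.0215). Nkx6-1 had a miR-181 mean under 1 and was tested only through the GFP set. Of the 5 genes of this list with a mean of at least 1 in both sets, 1 was called higher (Irx1) and 0 lower. Nkx6-1 was no longer called without miR-181 mouse 1 or 2, nor Irx1 without miR-181 mouse 1 or 3. Genes of the red nucleus and tectum, apart from Pax7, did not pass in 6 of 7 tested, and their median was -0.06.

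Dopamine neuron genes differed little in comparison, and mostly towards lower values in the miR-181 set. Of 17 listed genes, all tested, 1 was called higher and 5 lower, against 15.3% and 5.21% of all genes. The median was -0.38 against 0.08 over all genes. Th differed by -0.60 ± 0.18 log2 units (308 ± 61.4 against 468 ± 99.1; limma adjusted p = 0.0409), with miR-181 mouse 1 next to GFP mouse 3 and no library crossing over. Slc6a3 differed by -0.45 ± 0.18 (limma adjusted p = 0.107) and Slc18a2, the vesicular monoamine transporter, by -0.19 ± 0.13 (112 ± 13.8 against 129 ± 21.4; limma adjusted p = 0.345), and neither passed. The other 4 lower genes were the transcription factors Nr4a2, at 25.1, 29.6 and 27.7 against 31.6 to 54.8 (log2 -0.70 ± 0.16), Lmx1a (log2 -1.02 ± 0.23) and Foxa2 (log2 -0.72 ± 0.22), which specify and maintain these neurons, and Ret, the receptor for glial cell line-derived factors (log2 -0.46 ± 0.14; limma adjusted p = 0.0166, 0.0136, 0.0456 and 0.0409 in that order). Pitx3, a further factor of these neurons, was nearly equal (log2 0.03; limma adjusted p = 0.903).

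The count of dopamine neuron genes called lower rested on few libraries. It was 1 without miR-181 mouse 1 or mouse 3, 2 without miR-181 mouse 2 or GFP mouse 1, 2 or 5, 3 without GFP mouse 4 and 6 without GFP mouse 3. With all libraries the count was 2 with no filter on low values or no intensity trend. It was 3 with genes centred within classes of transcript length, and 5 with median centring or other pseudocounts. Th itself was no longer called without any one of the 3 miR-181 libraries or of GFP mice 1, 2, 4 and 5, with adjusted p up to 0.168. Ret was lost without the same 7 libraries (up to 0.161) and Nr4a2 without miR-181 mouse 1 or 3 (up to 0.0674). In miR-181 mouse 3, the library lowest for Th and Slc6a3 and highest for the serotonin and meningeal genes, the summed level of the list was 960 TPM, against 1363 and 1335 in the other miR-181 libraries and 1286 to 2112 in the GFP set. The part of neighbouring tissue in these differences was not tested. None of the 6 genes listed for nigral dopamine subtypes passed in either direction (median -0.07; 1 gene, Sox6, had an unadjusted limma p under 0.05, at log2 0.55 and an adjusted p of 0.0599).

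Of 8 genes that mark dopamine neurons of the ventral tegmental area 2 were called lower and none higher, against 5.21% and 15.3% of all genes (median -0.22 against 0.08). Vip, a peptide also made by neurons of the dorsal raphe and other regions, stood at 0.85, 0.908 and 0.90 in mice 1, 2 and 3 of the miR-181 set and at 3.11, 6.10, 7.52, 3.85 and 4.98 in GFP mice 1 to 5 (log2 -1.96 ± 0.25; limma adjusted p = 0.00117). Cck, cholecystokinin, stood at 86.8, 67.0 and 38.9 against 94.4, 179, 137, 154 and 97.9 (log2 -1.07 ± 0.28; limma adjusted p = 0.0246), and it was no longer called without miR-181 mouse 2 or 3. Neither gene overlapped between the sets. Vip had a miR-181 mean under 1 and was tested only through the GFP set. Of the 7 genes of the list with a mean of at least 1 in both sets, 1 was called lower (Cck). Lmx1a, a factor that dopamine neurons share, was among the 2 of 7 subthalamic and mammillary genes called lower, a count of 1 without miR-181 mouse 1 or 3 or GFP mouse 1, 2, 3 or 5.

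Markers of the 2 fast transmitters were close to equal. Gad1, which makes GABA, stood at 367, 368 and 414 against 339 to 404 (log2 0.05 ± 0.07; limma adjusted p = 0.660), and Slc17a6, the vesicular glutamate transporter of midbrain and thalamus, at 98.7, 97.6 and 99.3 against 73.3 to 118 (log2 0.00; limma adjusted p = 0.986). Gad2, the second GABA-making enzyme, stood at 154, 160 and 179 against 125 to 143 and was called higher (log2 0.28 ± 0.06; limma adjusted p = 0.0108), as was Slc32a1, the vesicular GABA transporter (log2 0.24 ± 0.06; limma adjusted p = 0.0158). Gad2 lost its call with genes centred within classes of transcript length and without miR-181 mouse 3, as did Slc32a1, which lost it with median centring too. Pvalb, the calcium buffer of fast-firing reticular neurons, differed by -0.26 ± 0.08 and did not pass (limma adjusted p = 0.0525).

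**Figure D2:**
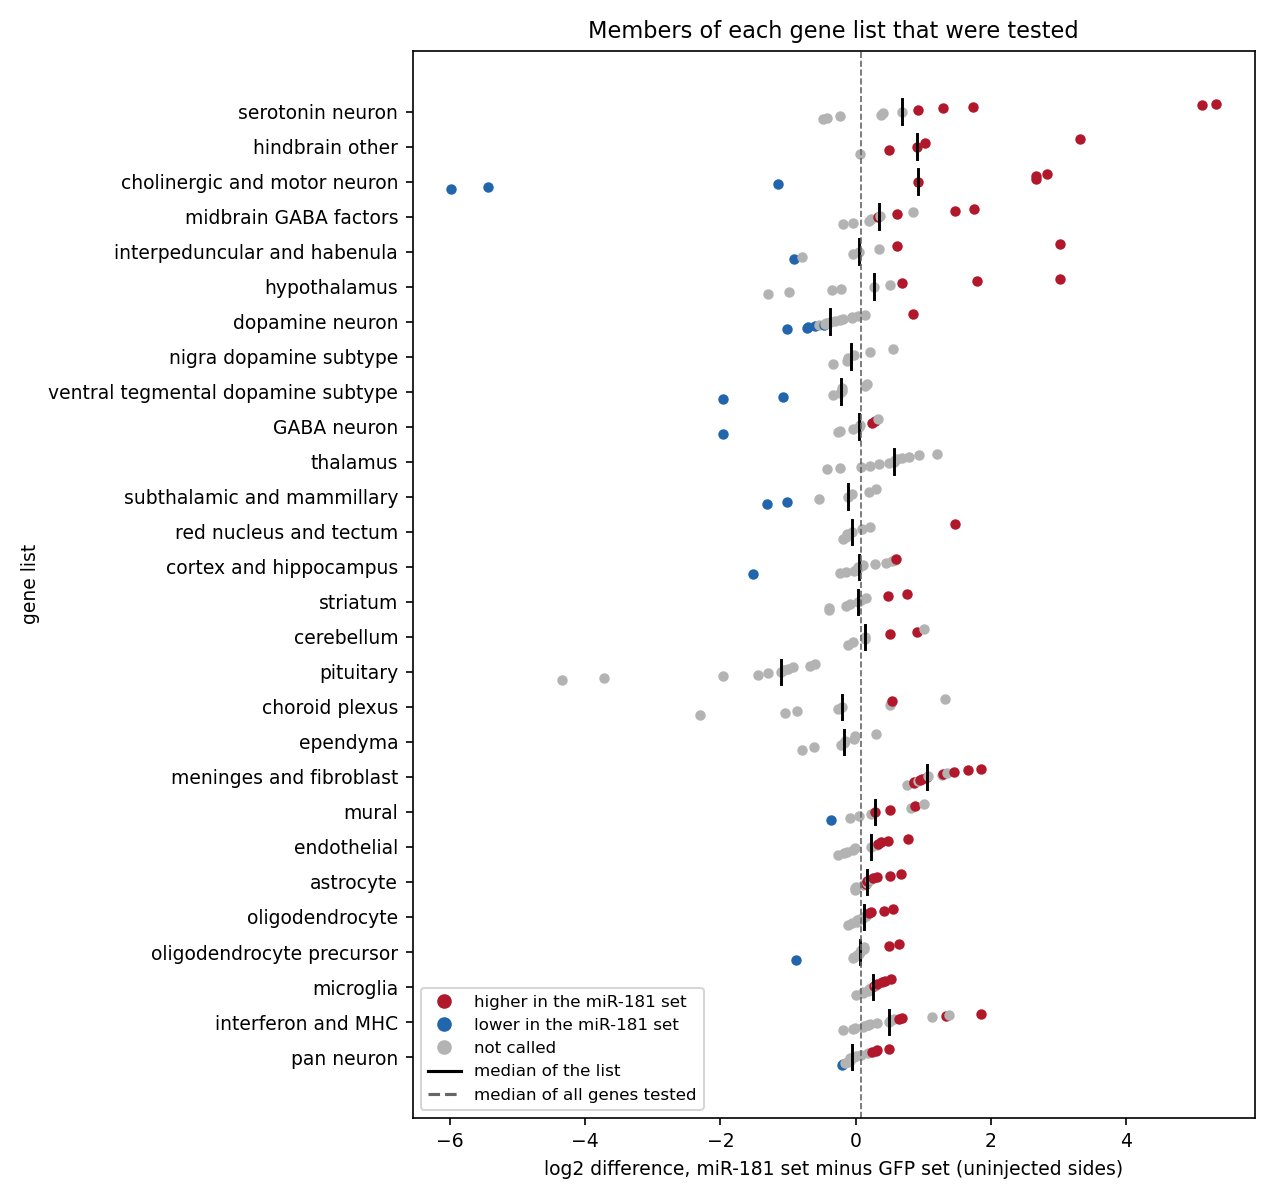
Log2 difference (miR-181 set minus GFP set) of each tested member of the region and cell type lists, 1 point per gene, coloured where it was called higher or lower, with the list median as a bar and the median of all genes tested (0.08) as a dashed line. Serotonin, hindbrain and cholinergic genes reach beyond 2, and Ucn and Cartpt lie below -5 in the cholinergic and motor neuron list.

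Thalamic genes showed another pattern, which varied between animals of both sets. Prkcd, a kinase of thalamic relay neurons, stood at 90.0, 90.5 and 22.8 in mice 1, 2 and 3 of the miR-181 set and at 17.9, 18.7, 85.6, 150 and 16.6 in GFP mice 1 to 5. Tnnt1, a troponin that thalamic neurons express, stood at 60.3, 45.1 and 13.5 against 5.45, 7.05, 39.1, 87.2 and 3.90. Ramp3, a receptor-modifying protein, and Rgs16, a regulator of G protein signals, ordered the libraries in about the same way, from 2.05 to 54.1 and from 4.53 to 57.1. Mice 1 and 2 of the miR-181 set and GFP mice 3 and 4 thus had high values, and miR-181 mouse 3 and GFP mice 1, 2 and 5 had low ones. None of the 13 tested thalamic genes passed between the sets in limma, and 0 had an unadjusted p under 0.05, although the list's median was 0.56 against 0.08. That median ranged from 0.28 without miR-181 mouse 1 to 0.84 without GFP mouse 4, and was 0.35 without miR-181 mouse 2 and 0.34, 0.36 and 0.32 without GFP mouse 1, 2 or 5. Without GFP mouse 1, which was low for the group, 1 was called lower, and without GFP mouse 4, the highest, 1 was called higher. Zic1, a patterning factor of thalamus and cerebellum, ran the same way, at 26.8, 22.2 and 8.82 against 3.51, 4.76, 19.5, 30.0 and 3.99. The summed level of the list was 666, 581 and 352 against 340, 413, 706, 858 and 447 TPM.

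Most listed forebrain and cerebellar genes did not pass, 12 of 14 cortical and hippocampal, 7 of 9 striatal and 5 of 7 cerebellar genes. Among the cortical genes Tbr1, a factor of glutamate neurons, was lower in the miR-181 set, at 0.412, 0.543 and 0.873 against 1.61 to 3.84 (log2 -1.52 ± 0.25; limma adjusted p = 0.00409), and Prox1 was higher (log2 0.59 ± 0.12; limma adjusted p = 0.00803), a call lost with centring within length classes. Tbr1 had a miR-181 mean under 1 and was tested only through the GFP set. Of the 12 genes of this list with a mean of at least 1 in both sets, 1 was called higher (Prox1) and 0 lower. The list's median was 0.05 against 0.08. Slc17a7, the vesicular glutamate transporter of cortex and thalamus, stood at 19.9, 22.8 and 14.1 against 10.7, 20.0, 16.6, 24.4 and 3.56 and did not pass (log2 0.54 ± 0.51; limma adjusted p = 0.499). Of 9 striatal genes, Penk, the enkephalin precursor, and Bcl11b, a factor of striatal projection neurons, were called higher (log2 0.48 ± 0.12 and 0.76 ± 0.14; limma adjusted p = 0.0243 and 0.00595), and Penk was no longer called without miR-181 mouse 3 (adjusted p = 0.110). The receptors Drd1 and Adora2a, which mark striatal projection neurons, did not pass (limma adjusted p = 0.208 and 0.689). Of the 7 tested cerebellar genes Car8, a carbonic anhydrase-related protein of Purkinje cells, and Zic2, a patterning factor, were called higher (log2 0.51 ± 0.13 and 0.90 ± 0.28; limma adjusted p = 0.0237 and 0.0469; list median 0.14 against 0.08). These counts of 2 stand against the 15.3% of all genes called higher, and the cerebellar one was 0 without miR-181 mouse 1 or 3 and with median centring.

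Among the uninjected libraries, pituitary transcripts were abundant in a single one. In GFP mouse 1, Prl, prolactin, stood at 28970 TPM and Gh, growth hormone, at 18010, while no other uninjected library listed more than 9.44 of Prl or 3.53 of Gh. Pomc, the precursor of the corticotrope and melanotrope hormones, stood at 584, Cga, the shared subunit of the glycoprotein hormones, at 480, and Lhb, Tshb and Fshb, their specific subunits, at 66.5, 42.9 and 25.7. Pou1f1, the factor of cells that make prolactin and growth hormone, stood at 21.3. Pituitary genes summed to 48240 TPM in GFP mouse 1 and to between 6.01 and 20.8 in the other 7 libraries. Of the 11 pituitary genes tested, 9 had a mean under 1 in the miR-181 set, and 4 were tested when GFP mouse 1 was left out, so a comparison of the sets restates this library. The list's median was -1.11 with it and -0.12 without it, and limma called 0 genes either way (with it, 0 at an unadjusted p under 0.05). On its uninjected side GFP mouse 1 also had Gal, the galanin precursor, at 28.1 against at most 4.59 in the other uninjected libraries. Six6, a pituitary and hypothalamic factor, stood there at 3.98 against at most 0.304. In all, 19 genes stood in this library at 10 or more and at least 4-fold above each of the other 7, while the other libraries had between 0 and 5 such genes.

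Genes of the meninges and of fibroblasts were higher in the miR-181 set as a group, with 9 of 14 called higher, none lower and a median of 1.06, against 15.3% called higher and a median of 0.08 over all genes. Igf2, a growth factor made by the leptomeninges, stood at 64.8, 76.3 and 155 in mice 1, 2 and 3 of the miR-181 set and at 48.1, 41.2, 30.8, 42.5 and 27.4 in GFP mice 1 to 5 (log2 1.29 ± 0.28; limma adjusted p = 0.0120). Fmod, fibromodulin, stood at 12, 14.4 and 38.3 against 5.83, 5.5, 4.07, 7.81 and 2.52 (log2 1.86 ± 0.40; limma adjusted p = 0.0121), and Dcn, decorin, at 25.7, 28.2 and 38.6 against 13.2 to 19.0 (log2 0.86 ± 0.15; limma adjusted p = 0.00526). The sets did not overlap for these genes, and miR-181 mouse 3 was the highest in each. The summed level of the list was 173, 218 and 402 against 153, 118, 87.4, 118 and 73.6. Slc47a1 and Ccn3, a transporter and a matrix-associated protein named for their size of difference, followed the same order at 1.03, 5.93 and 10.3 and at 2.51, 7.08 and 15.7, against at most 0.988 and 1.86 in the GFP set (log2 2.35 ± 0.57 and 1.83 ± 0.43), and both lost their calls without miR-181 mouse 2 or 3. The count of 9 fell to 4 without miR-181 mouse 3 and to 7 without mouse 2, rose to 11 without mouse 1 or without GFP mouse 1, and was 1 on the injected sides. Of the 31-base words in Igf2 transcripts 61.9% also occur in Gm49394, so their reads can be split between both.

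**Figure D3:**
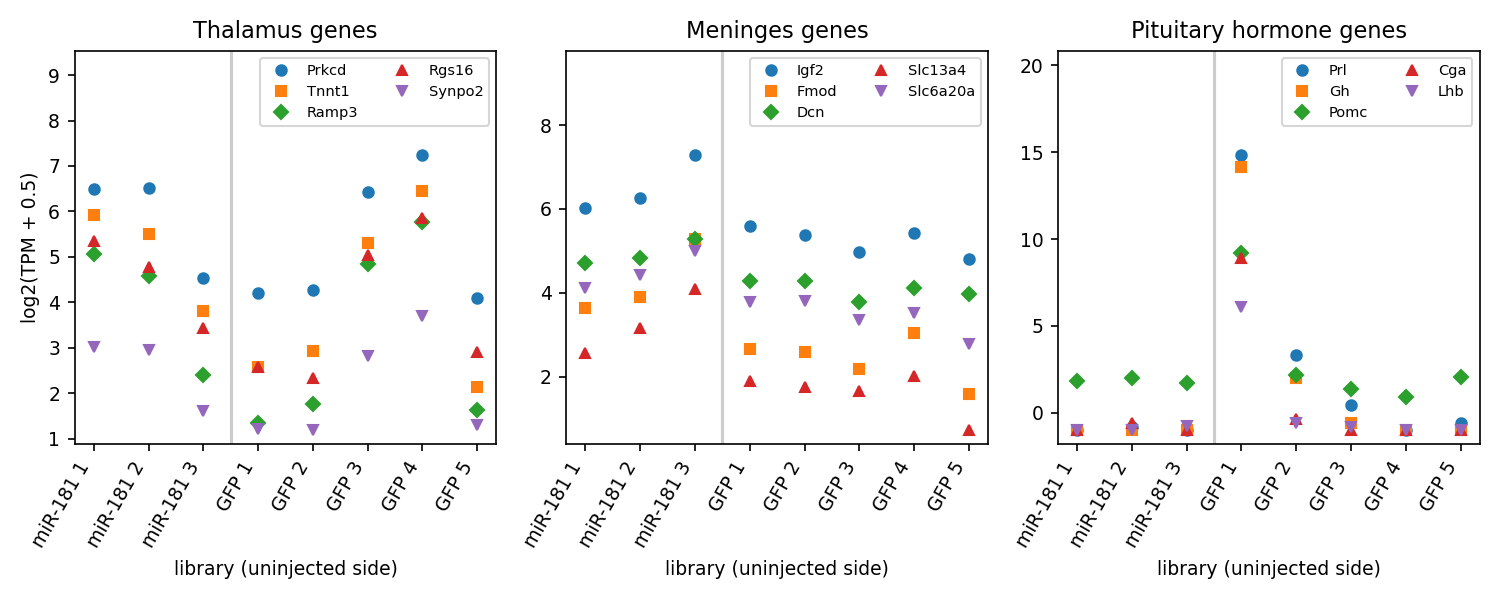
Values as log2(TPM + 0.5) of 5 thalamus, 5 meninges and 5 pituitary hormone genes, 1 point per gene and uninjected library, with the miR-181 set left of the vertical line and the GFP set right of it. The thalamus genes are high in libraries of both sets, the meninges genes highest in miR-181 mouse 3, and the pituitary hormone genes high in GFP mouse 1.

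Vessel wall genes gave mixed values. Of 9 tested mural genes 3 were called higher and 1 lower, against 15.3% and 5.21% of all genes (median 0.28 against 0.08). None was called without miR-181 mouse 2, miR-181 mouse 3 or GFP mouse 5. Acta2, smooth muscle actin, stood at 12.3, 19.8 and 57.5 against 9.27 to 16.5 and did not pass (limma adjusted p = 0.111). Of 11 endothelial genes 4 were called higher, or 2 without miR-181 mouse 3, against 15.3% of all genes. The summed level of the endothelial list overlapped between the sets, at 424 to 473 against 410 to 474 TPM. The endothelial transporter Slco1a4 was the clearest, at 64.9, 63.2 and 56.4 against 33.3 to 39.5 (log2 0.77 ± 0.07; limma adjusted p = 0.000230), and it stayed called in every setting; here miR-181 mouse 3, the highest for the meningeal list, was the lowest of its set. Choroid plexus genes were low throughout, and Ttr, transthyretin, their most abundant transcript, stood at 1.00, 6.00 and 1.76 against 1.71, 27.1, 11.1, 18.3 and 38.1 (log2 -2.31 ± 0.85; limma adjusted p = 0.0867). No ependymal gene passed in limma (0 of 8, with 1 lower at an unadjusted p under 0.05).

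Some glial genes were called higher in the miR-181 set, by small amounts, while 6 of 12 astrocyte, 8 of 12 oligodendrocyte and 8 of 11 precursor genes did not pass. Of 12 astrocyte genes 6 were called higher and none lower, with a median of 0.17, against 15.3% and 0.08 over all genes. Gfap, an intermediate filament of astrocytes, stood at 463, 427 and 362 against 338, 305, 227, 259 and 203 (log2 0.67 ± 0.16; limma adjusted p = 0.0174), and the call was lost without miR-181 mouse 1 or 2. Aqp4, the water channel of astrocyte end feet, stood at 199, 157 and 188 against 119 to 136 (log2 0.51 ± 0.08; limma adjusted p = 0.00271). The astrocyte count was 2 without miR-181 mouse 1 or mouse 2 and 3 with median centring. Of 12 oligodendrocyte genes 4 were called higher, against 15.3% of all genes (median 0.13 against 0.08). Among them was Aspa, which breaks down N-acetylaspartate, at 84.3, 82.1 and 85.2 against 53.1 to 65.3 (log2 0.55 ± 0.07; limma adjusted p = 0.00102). Without miR-181 mouse 1 or 2 the oligodendrocyte count was 2, and with median centring it was 2 higher and 1 lower with a median of 0.03. Of 11 precursor genes 2 were called higher and 1 lower, with a median of 0.07, near the values over all genes. Among them C1ql1, a secreted ligand for adhesion receptors, was lower, at 24.8, 23.3 and 26.3 against 35 to 53.9 (log2 -0.88 ± 0.13; limma adjusted p = 0.00231), while the growth factor receptor Pdgfra and Enpp6, a marker of newly formed oligodendrocytes, were higher (log2 0.50 ± 0.07 and 0.64 ± 0.09).

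Differences over all genes ran alongside transcript length. Over 8 classes of protein-coding genes of equal number, from the shortest (longest transcript of 66 to 1573 bases) to the longest (6404 to 123179 bases), the median log2 difference was -0.03, 0.00, 0.03, 0.06, 0.08, 0.11, 0.16 and 0.24. The share of genes called higher went from 5.19% in the shortest class to 41.5% in the longest, and the share called lower from 11.9% to 1.06%. Map2, a neuronal microtubule protein with long transcripts, was higher at 480, 492 and 518 against 330 to 369 (log2 0.49 ± 0.04; limma adjusted p = 0.000232), and Uchl1, an abundant neuronal protein with a short transcript, was lower at 990 ± 34.0 against 1128 ± 54.2 (log2 -0.19 ± 0.05; limma adjusted p = 0.0198), a call lost without miR-181 mouse 2 or 3. Both kept their calls with genes centred within length classes, at 0.33 and -0.14. Of 16 genes common to all neurons 4 were called higher and 2 lower, against 2 and 9 with median centring and 2 and 6 without GFP mouse 1. Over all genes 15.3% were called higher and 5.21% lower. Centring genes within length classes, which was added after the data were seen, left 878 genes called higher and 1174 lower, 3 of 12 astrocyte genes called higher, and 2 oligodendrocyte genes higher and 1 lower. Serotonin (5), meningeal (9) and cholinergic genes (4 higher and 3 lower) gave the same counts with it. The part of length in single differences was not tested.

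**Figure D4:**
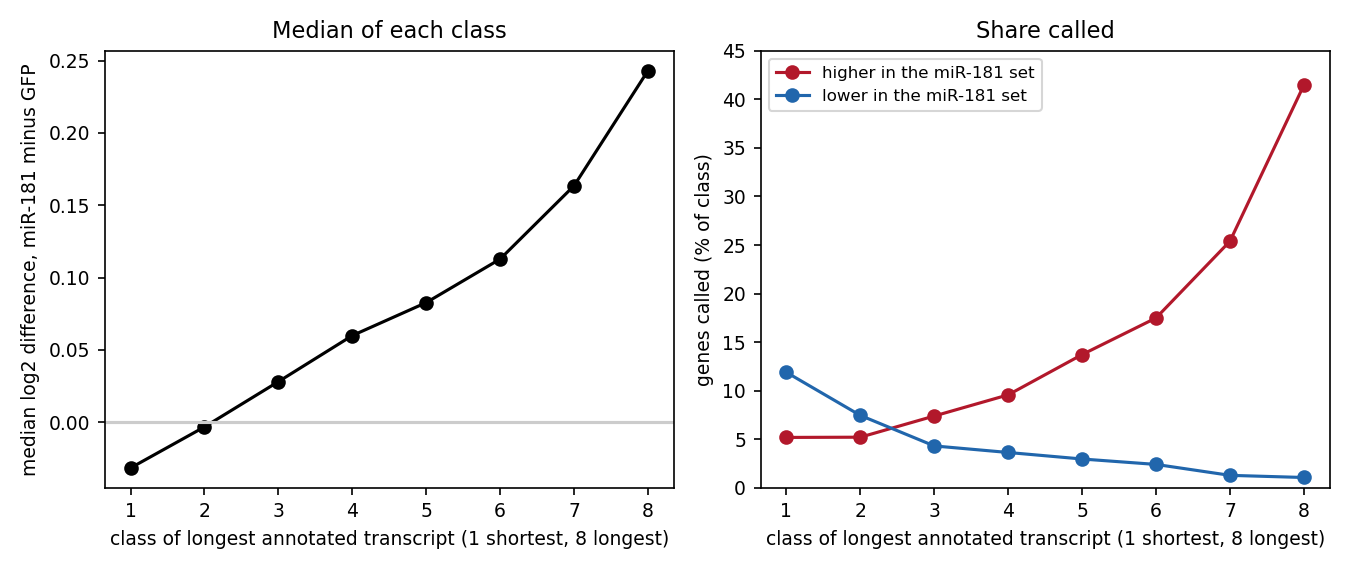
Median log2 difference (miR-181 set minus GFP set) of protein-coding genes in 8 classes of transcript length, from short to long, with the percent of genes called higher and lower in each class beside it. The median runs from -0.03 in the shortest to 0.24 in the longest class.

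Most immune genes listed did not pass on the uninjected sides. Of 12 microglial genes 5 were called higher and none lower (median 0.25 against 0.08, and 15.3% called higher over all genes), with P2ry12, a purine receptor of resting microglia, at 39.7, 32.5 and 36.4 against 21.5 to 31.7 (log2 0.52 ± 0.12; limma adjusted p = 0.0140, up to 0.0620 without miR-181 mouse 1 or 3). The microglial count was 3 without miR-181 mouse 1 or 2 and 2 without mouse 3 or with median centring. Of 19 tested interferon and MHC genes 4 were called higher and none lower (median 0.49 against 0.08), a share not far from the 15.3% of all genes. H2-Eb1, an MHC class II chain, stood at 9.14, 8.36 and 16.0 against 7.09, 3.00, 4.30, 2.80 and 3.57 (log2 1.34 ± 0.29; limma adjusted p = 0.0128), and H2-Aa, another, at 9.87, 7.52 and 16.2 against 9.89, 1.49, 1.81, 2.63 and 1.43, with GFP mouse 1 inside the range of the miR-181 set (log2 1.84 ± 0.52; limma adjusted p = 0.0345), a call lost without any one library except GFP mouse 1. Ifit3, an interferon-induced antiviral protein, was higher by 0.68 ± 0.15 (limma adjusted p = 0.0130), and 61.8% of its 31-base words also occur in its copy Ifit3b. None of the 19 was called without miR-181 mouse 3, 2 without mouse 1 or 2, 7 were called without GFP mouse 1, and 6 without GFP mouse 4. Mouse 3 of the miR-181 set, the highest for both class II chains, was also the highest for the meningeal list, and the part of that tissue in these differences was not tested. None of 14 immediate early genes and none of 12 glucocorticoid response genes passed in limma (at an unadjusted p under 0.05, 2 were higher and 1 lower, and 0 higher and 2 lower). Of 16 clock genes Clock, Nr1d2 and Tef were called higher, by 0.48 ± 0.07, 0.52 ± 0.10 and 0.47 ± 0.08, a share near that of all genes (15.3%), and 5 were called without GFP mouse 4.

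Some of the largest differences belonged to genes of no single region. Elp6, a subunit of the Elongator complex that modifies transfer RNA, stood at 13.6, 13.3 and 12.1 in the miR-181 set and at 1134 to 1288 in the GFP set, a difference of -6.50 ± 0.06 log2 units (limma adjusted p = 6.57e-12), with very little spread within each set. Lrrc17, a secreted protein whose gene overlaps Fbxl13 on the other strand, stood at 20.2, 18.9 and 21.0 against 143 to 169 (log2 -2.96 ± 0.06; limma adjusted p = 6.83e-09). The olfactory receptor genes Olfr907 and Olfr784 differed by -4.44 ± 0.22 and -2.18 ± 0.08, Gnat1, the transducin subunit of rod cells, by -2.05 ± 0.24 and Unc13d, a vesicle priming protein of blood cells, by -1.70 ± 0.13. Ptpmt1, a mitochondrial phosphatase whose identifier was not found in the annotation, and Fam177a were higher by 2.37 ± 0.37 and 1.88 ± 0.29. For some of these genes the reads can fall on copies elsewhere: 98.5% of the 31-base words of Fam177a occur in 1700047I17Rik2, 48.7% of those of Olfr784 occur in transcripts of other genes, and 8.72% of those of Elp6 do. Processed pseudogenes, which are copies of transcripts put back into the genome, were differently represented too: 44 of 595 tested were called higher and 80 lower by more than 2-fold (20.8% in all), against 85 and 57 of 14290 protein-coding genes (0.994%).

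The injected sides of the same 2 sets, 3 libraries against 4, were compared in the same way as a second reading of the sets in tissue from the same animals. Of 15519 genes tested there, limma called 2323 (15%) higher and 1387 (8.94%) lower in the miR-181 set. Of the 3131 genes called on the uninjected sides 1748 were called in the same direction there, which is 55.8% of the uninjected and 47.1% of the injected calls, and 4 were called in the opposite direction. Among the 324 genes called with more than a 2-fold difference, 214 were called in the same direction, none in the opposite, and 17 were not tested there. The sides share the animals, the preparation and the sequencer, and the injected sides also carry the vectors, so the 2 comparisons are not independent.

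Several of the genes described above, some of them markers of neighbouring nuclei, were called in the same direction on both sides. Tph2 and Slc6a4 differed by 4.58 and 5.25 log2 units on the injected sides, Chat by 1.77, Ucn by -5.62, Cartpt by -4.55, Elp6 by -6.38 and Slco1a4 by 0.63 (limma adjusted p = 6.6e-05, 5.3e-05, 0.0150, 0.00587, 0.0114, 1.03e-09 and 0.0162). Other genes described above lost their call on the injected sides: Glra1 (log2 0.33), En2 (0.59), Irx1 (0.42), Pax7 (0.84) and Slc17a8 (0.76), with limma adjusted p of 0.221, 0.0538, 0.0581, 0.280 and 0.153. The serotonin list had 4 called higher and 3 lower there, and the median of the interpeduncular and habenular list was -0.40 there against 0.05 on the uninjected sides. Dopamine neuron genes were lower there in 11 of 17 and higher in none, with a median of -0.92, and Th differed by -1.11 (limma adjusted p = 0.00969). Microglial genes were called higher there in 10 of 12 and interferon and MHC genes in 15 of 20, with medians of 0.71 and 2.06, while 1 of 14 meningeal genes was. Slc32a1, called higher on the uninjected sides, stood at -0.07 on the injected sides and did not pass (limma adjusted p = 0.417). Whether the differences themselves differ between the sides was not tested.

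**Figure D5:**
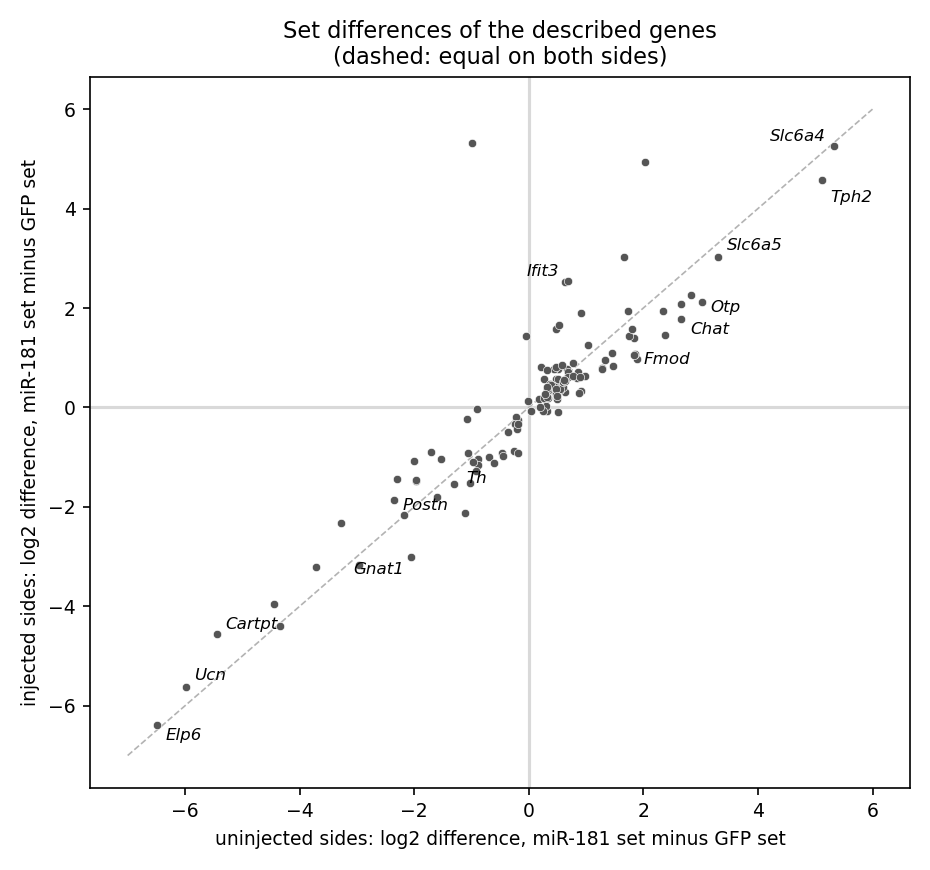
Log2 difference between the sets (miR-181 minus GFP) on the injected sides (vertical) against the uninjected sides (horizontal), 1 point for each gene named by rule and tested on both sides, with a dashed line where both are equal. Tph2 and Slc6a4 lie near 5 and Ucn, Cartpt and Elp6 below -4 on both axes.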

How the data were processed

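RNA of 8 uninjected nigra samples was measured by stranded sequencing of polyA RNA, per the labels' protocols, which give an RNA integrity number above 7.5 for all samples. Per the submitters' processing notes the authors used kallisto 0.43.1 and sleuth 0.30.0 on GRCm38. The strand setting is not given in the sources used here, so genes overlapping on opposite strands cannot be told apart (here Glra1, Pax8, Nkx6-2, Pax5, Pitx3, Zic1, Prox1, Penk, Lrrc17, Map2, Pdgfra, P2ry12, Tef, Cga, Lhb and Six6). The deposited values are a normalized signal per gene and library, read as TPM divided by 1 size factor per library from column sums of 970505 to 1040288. The planned test assumed TPM and was kept. Depth is unknown, so values carry no counting interval.

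Each table had 56305 entries, 36660 with values. After 395 repeated identifiers were left out, 36265 genes were joined by identifier, of which 35936 are in GENCODE M21 and 66 symbols are shared. Each library was rescaled to a sum of 1e+06. Values were compared as log2(value + 0.5), which understates differences of low genes, keeping genes whose mean reached 1, with limma 3.58.1 in R 4.3.3 (intensity trend, two-sided, Benjamini-Hochberg over all genes at 0.05). Means are given with their SD and differences with their SE. On simulated data with known changes the test found 46 of 50 genes changed by 2 log2 units, 41 of 50 by 1, 16 of 50 by 0.5 and 40 of 46 by -1, and 5 of 14885 unchanged genes.

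Named were the 12 largest called differences each way (sets not overlapping, mean of at least 5 in the higher set, no predicted models or receptor segments), up to 5 called members of each of 44 lists (497 symbols, 30 without values), up to 5 genes at 10 or more and 4-fold above the other libraries for each library, and fixed markers, in all 136 genes. Some genes that the rule names are not reported here. Other list members are named as examples, chosen after their values were seen. The samples and lists were chosen with earlier results of these data known. A count of list members is read against the percent called over all genes and is not a test of the list. Promoters are from RefSeq (GRCm38.p6). Mouse numbers 1 to 3 occur in both sets but are different animals, so they pair nothing. Python 3.11.15, numpy 2.4.6, pandas 2.3.3 and matplotlib 3.10.9 were used. Alternatives were other pseudocounts, filters and scalings, no intensity trend, array weights, a replicate block, each library left out and the injected sides.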

Additional observations from a re-analysis of the deposited data

Results flagged for a closer look

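In the GFP set, 123 named genes and 41 summed lists were examined for a library whose gap to its nearest neighbour exceeds 0.71 of the range of the 5 libraries, which chance alone gives in about 1 of 20 groups. GFP mouse 1 stood apart for the pituitary and hypothalamus lists, at sums of 48240 and 638 TPM, the latter mostly Pomc. It also stood apart for Prl (28970), Gh (18010), Pomc (584), Cga (480), Fshb (25.7), the class II chain H2-Aa (9.89) and the immunoglobulin segments Igkj3 (15.2) and Ighg1 (2.02), and it was the lowest library for the pericyte gene Higd1b (9.20). GFP mouse 2 was lowest for Ifit3 (10.3) and highest for the predicted genes Gm44429 (62.0) and Gm50083 (10.3). GFP mouse 3 was highest for Gm3005 (15.8) and the T cell receptor segment Trbj2-4 (12.5). GFP mouse 4 was highest for Slc5a7 (1.53) and for Gm44922 (28.8), Gm47965 (27.7), Gm48667 (11.3), Gm50454 (19.9) and Gm6020 (23.4). GFP mouse 5 was highest for Ermn (112), a myelin-associated protein, Lmx1a (5.88), Gm47893 (10.5), Gm48446 (13.6) and Traj39 (18.0), and it stood apart for the mitochondrial gene mt-Nd5 at 3571. The genes specific to 1 library were named for being high there, so their gaps follow from that choice. Groups of 3 libraries were not examined.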

How the results depend on the processing

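The 3131 calls (2336 higher, 795 lower) stayed within 1.5 times under other pseudocounts, no filter, a mean of at least 5, unrescaled values, a sum without the most abundant genes and no intensity trend. Median centring gave 1208 higher and 1793 lower, quantile normalization 1654 and 1159, and array weights 2889 and 1074. Length-class centring, added after the data were seen, gave 878 and 1174 (2052 in all). The injected sides gave 1387 lower. Without single libraries the calls ranged from 1513 to 3137, the higher ones from 1082 to 2316 and the lower ones from 431 to 891; miR-181 mice 1, 2 and 3 gave 1909, 1809 and 1513 calls when left out. With the mouse number as a replicate block, on the 3 numbers both sets share, there were 1347 calls, 950 higher and 397 lower; same-numbered mice are different animals, their deviations correlated at -0.03, 0.02 and 0.02, and the number pairs nothing. The block left 0 of 9 meningeal calls. Of 107 named genes that were called, 30 lost the call on the injected sides, 49 under the block, 23 with median centring and 0 with other pseudocounts. Of the named genes that were called, Car8 (-0.10), Itih3 (-0.0731) and Slc32a1 (-0.067) turned sign on the injected sides. Igkj3 turned sign too (5.33, limma adjusted p = 0.000377), but it was not called on the uninjected sides. There it stood at 15.2 in GFP mouse 1 and was listed at 0 in the other libraries. The cause was not tested. With 3 miR-181 libraries, differences under about 1 log2 unit were often missed in the simulated test, and depth is unknown.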
